A study of Mus musculus with 4 samples.

Results

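Type I interferon and its receptor chain, with the receptor of interferon gamma, were measured as 9 genes of 55536 Ensembl genes in the deposited tables. They were the ligand gene Ifnb1, the type I receptor chains Ifnar1 and Ifnar2, and the interferon gamma receptor chains Ifngr1 and Ifngr2. The others were the kinases Jak1, Jak2 and Tyk2, and the transcription factor Stat2. All 9 genes were picked by gene symbol, a rule that uses no measured value. The choice of genes was made with earlier results of these data known. The series holds 4 polyA-selected RNA-seq libraries of bone-marrow-derived macrophages of C57BL/6J mice, all of 1 group. The cells had received 100 ng/ml Lipid A, the membrane anchor of bacterial lipopolysaccharide, for 12 h, then a washout of 12 h, then Lipid A again at 100 ng/ml for 60 min. The labels conflict on this: some fields say lipoprotein A, and those fields mention no washout. Untreated cells, or cells given Lipid A once, are not analysed here, so no level below is a response to Lipid A. The labels call the libraries biological replicates but give 1 donor entry for all 4, so spread between them may be partly technical.

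Interferon beta is secreted by macrophages after Toll-like receptor signalling and binds a receptor made of IFNAR1 and IFNAR2. TYK2 is bound to IFNAR1 and JAK1 to IFNAR2. The kinases phosphorylate STAT2, which acts with IRF9 in the complex ISGF3 to switch on antiviral genes. Interferon gamma uses IFNGR1, which binds JAK1, and IFNGR2, which binds JAK2.

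The libraries held 23167140 to 41453162 expected counts on genes. Replicates 1 and 2 were made from 6 read files each and replicates 3 and 4 from 4 each. All 8 macrophage markers on a fixed list reached 1 TPM (a transcript level scaled to the library and corrected for transcript length) in every library, and none of the 8 T and NK cell, 4 B cell or 4 stromal markers did. Of 8 neutrophil markers 2 did, S100a8 and S100a9, while Ly6g and Retnlg had no count. Ngp (137, 6, 205 and 13 counts in replicates 1 to 4) and Ltf (40, 1, 98 and 5) were, like S100a8 and S100a9, higher in replicates 1 and 3. Camp had 2 to 15 counts and Elane 0 to 9. The summed neutrophil markers were 132.5 TPM in replicate 1, 13.0 in replicate 2, 105 in replicate 3 and 12.1 in replicate 4. Of the stromal markers, Col1a1 (0, 0, 182 and 27 counts) and Col1a2 (6, 0, 224 and 13) passed 1 TPM in replicate 3 only. Pdgfra had 0 to 8 counts and Dcn 1 to 18. Of 8 markers of plasmacytoid dendritic cells, which are known for making interferon alpha, 2 reached 1 TPM in each library (Tcf4 at 32.2 TPM and Cox6a2 at 6.46). The others, Siglech, Ccr9, Klk1, Pacsin1, Ly6d and Spib, had means of 0.0225 to 0.475 TPM. In such bulk samples, fewer cells of a type and less RNA per cell cannot be told apart.

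The promoters of Ifnb1 and Stat2 are shown because these are the ligand gene and the transcription factor gene of the pathway, and they are the windows in which matches to the IRF core were found. All 9 genes matched the RefSeq promoter table (GRCm38.p6), which runs from 250 bases before to 50 after each start site. Its start sites for Ifnb1 and Stat2 differ from the 5′ ends of the gene coordinates given below. Distances hold for the RefSeq start sites only. Capitals mark the IRF core AANNGAAA on either strand and the NF-kB motif GGGANNTTC, each line read 5′ to 3′ on the gene's strand. The Ifnb1 line is chr4:88522860-88522959 on the minus strand, 165 to 66 bases before the start site. The Stat2 line is chr10:128270248-128270307 on the plus strand, 250 to 191 bases before it.
Ifnb1: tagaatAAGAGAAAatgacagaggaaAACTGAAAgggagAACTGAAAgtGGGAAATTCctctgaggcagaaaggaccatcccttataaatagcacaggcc
Stat2: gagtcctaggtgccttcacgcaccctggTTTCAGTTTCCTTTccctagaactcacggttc

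Ifnb1 held 3 matches to the IRF core and 1 to the NF-kB motif, which lies 116 to 108 bases before the start site. Stat2 held 2 overlapping matches to the IRF core, both on the opposite strand, and the other 7 genes held none. Of 32851 promoters, 23.9% held the core at least once and 5.34% at least 2 times, while 3.94% held the NF-kB motif. A longer form, GAAANNGAA, was searched first: it had no match in Ifnb1, 1 in Stat2 and a match in 8.56% of promoters. The shorter core was searched after that, so its matches in Ifnb1 are a description only. The NF-kB motif also matched once in Ifngr2. The STAT motif TTCNNNGAA, found in 8.30% of promoters, matched once each in Ifnar1 and Ifnar2.

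The levels spanned from a mean of 371 TPM for Stat2 to 26.9 for Ifnb1. The order of means was Stat2, Ifnar2, Ifngr1, Ifngr2, Jak1, Ifnar1, Tyk2, Jak2 and Ifnb1. All 9 genes reached 1 TPM in each library, and the median of their means was 80.5 TPM, against 17.2 over the 10407 genes that did so. The ranges over libraries of Stat2 and Ifnar2 did not overlap, nor did those of Ifnar2 and Ifngr1, or Jak1 and Ifnar1. The other neighbours in that order had overlapping ranges, from Ifngr1 and Ifngr2 to Jak2 and Ifnb1.

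**Figure D1:**
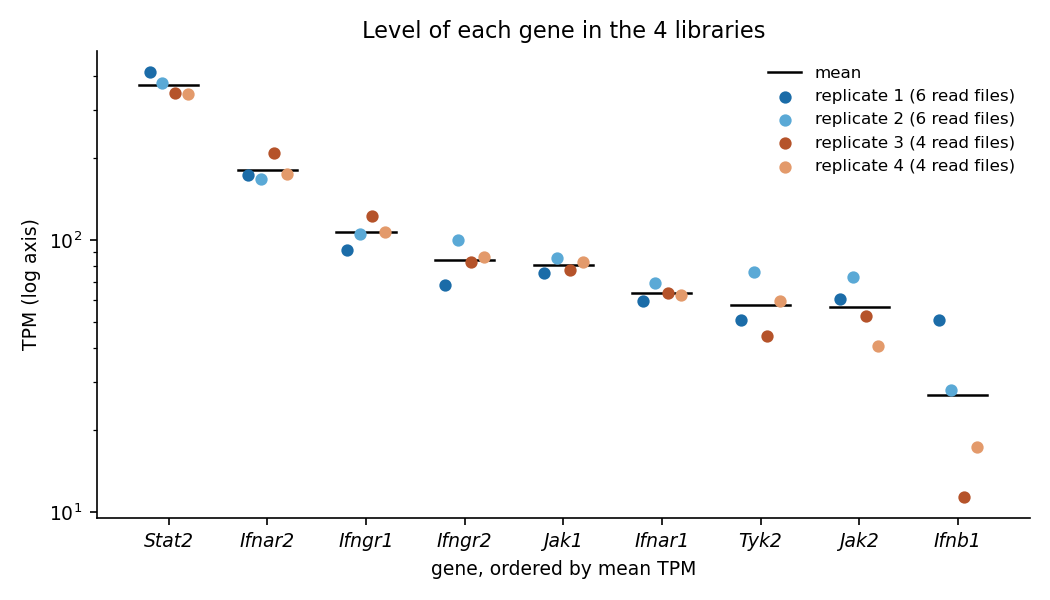
TPM (log axis) of the 9 genes in the 4 libraries, ordered by mean TPM; each point is 1 library and each black line the mean. Stat2 is highest, at 344 to 414 TPM, and the points of Ifnb1 are spread most widely, from 11.4 to 50.8 TPM.

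The ligand gene Ifnb1 (ENSMUSG00000048806.4, mm10 chr4:88522025-88522774, minus strand) has a single exon and a single annotated transcript. Its level was 50.8 TPM in replicate 1, 28.0 in replicate 2, 11.4 in replicate 3 and 17.3 in replicate 4, from 447, 213, 159 and 201 counts. Both libraries made from 6 read files were above both made from 4. The mean was 26.9 ± 17.4 TPM (SD, n = 4), and as CPM (counts scaled to library size, after TMM normalisation) the highest library was 5.23 times the lowest.

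Variation between libraries was tested for each gene against the spread usual at its abundance (edgeR deviance test, Benjamini-Hochberg adjusted). This called 305 of 11679 genes, 2.61%, at an adjusted p of up to 0.05, and 910 genes, 7.79%, had an unadjusted p under 0.05. Of the 9 genes it called 1, Ifnb1, with an adjusted p of 0.00233 by edgeR. Without replicate 1 the adjusted p of Ifnb1 was 0.537 and without replicate 3 it was 0.0725, so its call rests on those libraries. The neutrophil markers were high in both of these, where Ifnb1 was at its highest and its lowest, and their part in its spread was not tested. The adjusted p of the other 8 genes was 1.00 by the same edgeR test, which does not show that they were constant.

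Compared by number of read files, Ifnb1 was lower in the libraries with 4 (log2 difference −1.59, edgeR quasi-likelihood adjusted p = 0.636). That test called 0 of 12667 genes (0%), with 897 at an unadjusted p under 0.05. DESeq2 called 103 (0.813%), and Ifnb1 was the 1 gene of the 9 among them, with an adjusted p of 0.0422. The TPM of the pairs of libraries did not overlap for 5 of the 9 genes (Ifnb1, Ifnar2, Ifngr1, Jak2 and Stat2), against 37.8% of all genes tested for variation. The number of read files and whatever else differed between these libraries cannot be told apart.

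The genes most like Ifnb1 were named by the smallest root-mean-square difference of centred log2 CPM over the 4 libraries, among 10746 protein-coding genes. The first was Ccl4, a macrophage chemokine, at a difference of 0.024, with 1318, 631, 263 and 395 CPM in replicates 1 to 4. Abtb2 (0.082), Pou3f1 (0.14), Gm11273 (0.17) and Slc28a2 (0.17) followed. With 4 libraries from 1 group, such likeness is a description of these libraries.

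**Figure D2:**
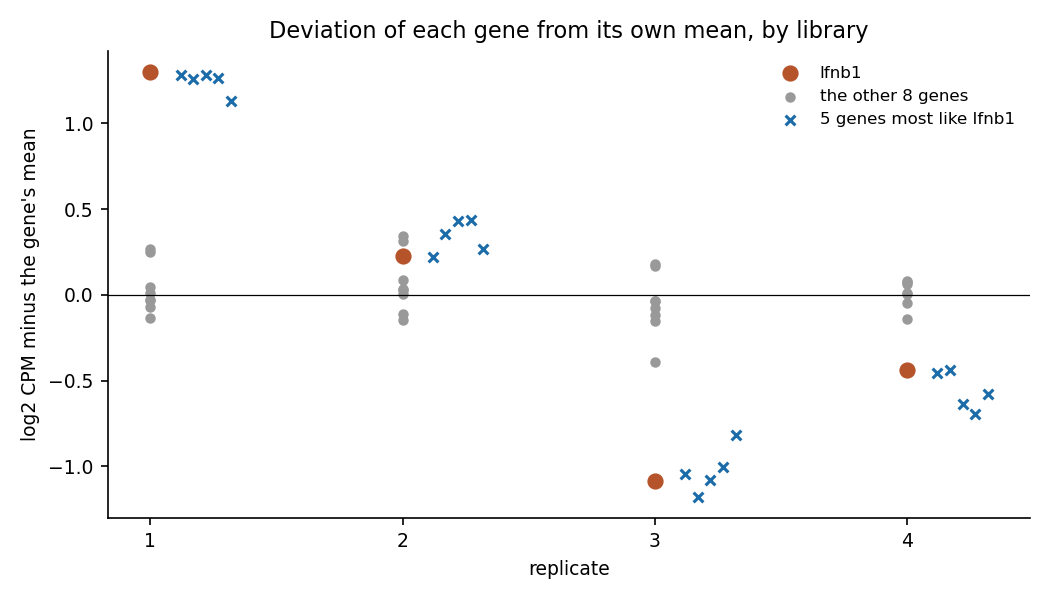
Log2 CPM minus each gene's own mean, by replicate, for Ifnb1 (large points), the other 8 genes (grey) and the 5 genes most like Ifnb1 (crosses). Ifnb1 lies 1.30 above its mean in replicate 1 and 1.09 below it in replicate 3 (−1.09), while the grey points stay between −0.44 and 0.34.

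Other interferon genes were at or near 0. None of 20 other ligands reached 1 TPM in every library, and 17 of them had no count in any. These were Ifna1, Ifna5, Ifna6, Ifna7, Ifna9, Ifna11, Ifna12, Ifna13, Ifna14, Ifna15, Ifna16, Ifnab, Ifne, Ifnk, Ifnz, Ifnl2 and Ifnl3. Where no count was seen, a level of up to 3 counts is still allowed, or 0.0724 to 0.129 CPM depending on the library (counting error only). Ifng, the type II ligand, had 7, 1, 9 and 0 counts, and Ifna4 and Ifna2 had 1 count each in 1 library. The Ifna genes are near-identical copies, so reads shared between them are uncertain.

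The genes that lead to Ifnb1 transcription were all present. The list of 18 covers the TRIF, TBK1 and IRF3 axis and the Ifnb1 enhanceosome. All 18 reached 1 TPM in each library, with a median of 70.4 TPM. By the edgeR test 0 varied and 0 had an unadjusted p under 0.05, against 2.61% and 7.79% of all genes tested, so the count of 0 among 18 is near the general share. The highest of the 18 were Irf7 at 2323 TPM, Irf1 at 671 and Hmga1 at 478. Irf7 is the interferon regulatory factor that amplifies the response, and Hmga1 a DNA-binding protein of the Ifnb1 enhanceosome. The genes that give the axis its name, Ticam1 (TRIF), Tbk1 and Irf3, had lower means of 23.2, 81.9 and 28.1 TPM.

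The receptor chains Ifnar2 (chr16:91372783-91405589), Ifnar1 (chr16:91485238-91507441) and Ifngr2 (chr16:91547072-91565623) lie with Il10rb within 193 kb of mm10 chromosome 16, all on the plus strand. Ifngr1 lies apart, at chr10:19591949-19610229. Ifnar1 was 59.8, 69.5, 63.7 and 62.7 TPM in replicates 1 to 4, a narrow range. Ifnar2 was 173.8, 168.1, 209.5 and 174.2 TPM, with replicate 3 above the others. Transcripts of both genes were thus present in every library, with Ifnar2 the higher at gene level. That order did not hold for their full-length transcripts, which are described below.

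Ifngr1, the ligand-binding chain for interferon gamma, was 92.0, 105, 122 and 107 TPM. Ifngr2, its partner chain, was 68.2, 99.5, 82.6 and 86.6 TPM. By TPM, replicate 1 was lowest for both. By CPM it was lowest for Ifngr2 (177), while Ifngr1 was lowest in replicate 2 (121, against 124 in replicate 1). Ribosomal RNA, without mitochondrial genes, held 7.14% of TPM in replicate 1 and 1.29% to 2.73% in the other libraries.

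Within libraries, 7 pairs of genes were compared as differences of log2(TPM + 0.1). With 4 libraries the exact two-sided sign-flip test cannot go below p = 0.125, so no pair could pass 0.05. Ifnar2 exceeded Ifnar1 in 4 of 4 libraries by 2.83-fold (log2 Ifnar1 minus Ifnar2 −1.50 ± 0.18, SD, n = 4, exact p = 0.125, adjusted over 7 pairs 0.146). In counts not divided by transcript length it was 1.07-fold. Ifngr1 exceeded Ifnar1 by 1.66-fold and Ifnar2 exceeded Ifngr2 by 2.16-fold, each in 4 of 4 libraries. Ifngr1 exceeded Ifngr2 by 1.27-fold in 4 of 4, but in the second quantification described below that difference was −0.017 on the log2 scale.

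The gene-level order of Ifnar1 and Ifnar2 did not hold for their full-length transcripts. Mouse Ifnar2 is known to make a receptor chain that spans the membrane and a shorter, soluble form. Ifnar2-203, with 7 exons and 744 coding bases, took 76.0%, 67.4%, 71.4% and 70.7% of the gene's TPM in replicates 1 to 4. Ifnar2-201, with 9 exons and 1539 coding bases, took 18.5%, 24.4%, 22.3% and 25.6%. By counts, which favour long transcripts, Ifnar2-201 had 48.7% and Ifnar2-203 had 46.1% on average.

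The ends of the coding sequences are shown because they are where these transcripts part. The first 24 bases, in lower case, end the last coding exon that 3 transcripts share, from chr16:91393890 on the plus strand of mm10. Capitals mark what follows in each: 60 bases of the next exon in Ifnar2-201, and the remaining coding bases with the stop codon in Ifnar2-202 and Ifnar2-203. The sequences are from GENCODE M21.
Ifnar2-201: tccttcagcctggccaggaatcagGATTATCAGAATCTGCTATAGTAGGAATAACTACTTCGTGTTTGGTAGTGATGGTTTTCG
Ifnar2-202: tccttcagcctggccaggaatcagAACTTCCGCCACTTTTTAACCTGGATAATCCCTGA
Ifnar2-203: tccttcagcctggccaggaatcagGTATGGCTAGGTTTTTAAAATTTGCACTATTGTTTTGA

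Ifnar2-203 reads straight on past the splice site that Ifnar2-201 and Ifnar2-202 use and stops after 35 more coding bases. Ifnar2-202 joins a later exon, stops after 32 coding bases and took 2.02% of TPM. Ifnar2-201 codes for 830 bases beyond the shared part.

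**Figure D3:**
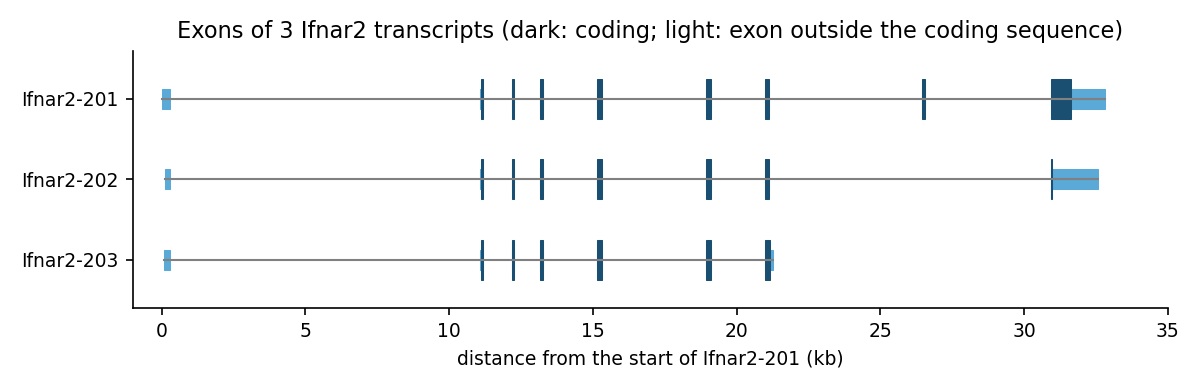
Exons of Ifnar2-201, Ifnar2-202 and Ifnar2-203 by distance in kb from the start of Ifnar2-201; dark boxes are coding and light boxes are exon outside the coding sequence. Ifnar2-203 ends at its 7th exon, and Ifnar2-202 lacks the next exon of Ifnar2-201.

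The short coding forms (Ifnar2-202 and Ifnar2-203) were 4.17, 2.86, 3.34 and 2.83 times the long form in replicates 1 to 4. The long form was 32.1, 40.9, 46.7 and 44.7 TPM. The Ifnar1 transcripts with the full coding sequence (Ifnar1-201 and Ifnar1-202) were 55.7, 63.0, 57.9 and 58.8 TPM, above it in 4 of 4 libraries. Their log2 difference was 0.53 ± 0.22 (SD, n = 4), opposite in sign to the gene-level value, and 0.55 in the second quantification. This comparison was chosen after the transcript shares had been seen.

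**Figure D4:**
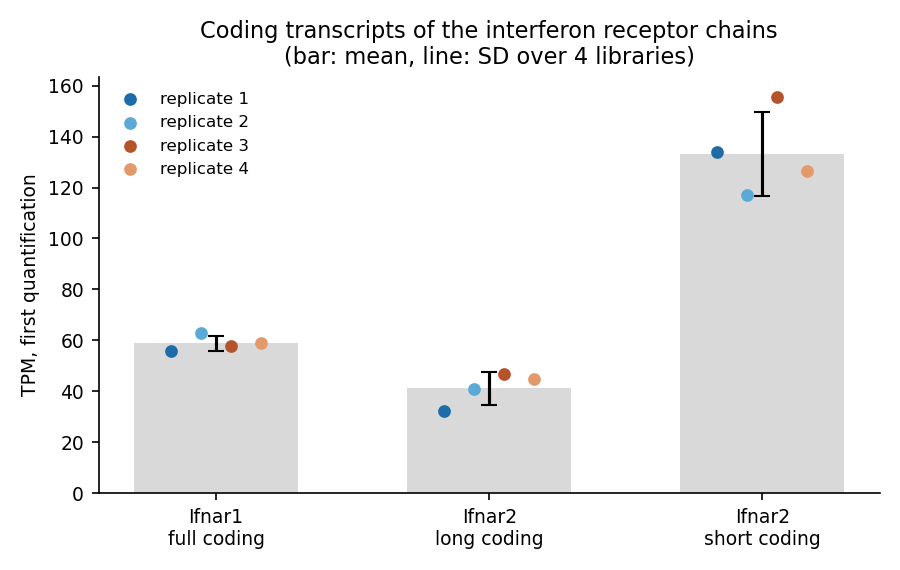
TPM of the full coding transcripts of Ifnar1 and of the long and short coding transcripts of Ifnar2; bars are means, lines are SD over 4 libraries and points are libraries. The Ifnar1 points lie above the long Ifnar2 points, and the short Ifnar2 points, at 117 to 156 TPM, lie above both.

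Ifnar1-201 held 78.7% ± 3.6 of its gene's TPM and Ifngr1-201 held 94.4% ± 1.4 (SD, n = 4). Ifngr2-201 held 100%, 92.2%, 99.9% and 100% in replicates 1 to 4 in the first quantification. In the second it held 63.7%, 65.4%, 90.3% and 87.5%, with most of the remainder given to Ifngr2-202, a transcript of 534 bases annotated for nonsense-mediated decay.

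The kinases, which carry the signal from the receptor chains, had means of 56.7 to 80.5 TPM. Jak1 (chr4:101152367-101265282, minus strand) was 75.6, 85.8, 77.6 and 83.1 TPM. Jak2 (chr19:29251828-29313080, plus strand) was 60.5, 72.8, 52.6 and 40.8 TPM, higher in both libraries with 6 read files. Tyk2 (chr9:21104068-21131243, minus strand) was 50.9, 76.0, 44.5 and 59.8 TPM, highest in replicate 2. Jak1 overlaps Raver2 on the opposite strand, which had 4 to 10 counts. Whether the counting used strand is not given in the sources used here.

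Jak1 exceeded Jak2 by 1.45-fold and Tyk2 by 1.42-fold, each in 4 of 4 libraries (exact sign-flip p = 0.125, adjusted 0.146). Jak2 and Tyk2 differed by −0.03 ± 0.38 on the log2 scale (SD, n = 4), with Jak2 higher in 2 of 4 libraries.

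Tyk2-203 took 94.6%, 94.9%, 93.3% and 92.6% of Tyk2 TPM. It lacks 69 coding bases, chr9:21124141-21124209 of mm10, that Tyk2-201 and Tyk2-206 hold. Those 2 transcripts together took 0.84% ± 0.43 (SD, n = 4). The stretch is shown because it separates the main transcript from the longest annotated coding form, with the 69 bases in capitals between 12 flanking bases on each side, read along the gene.
Tyk2-206: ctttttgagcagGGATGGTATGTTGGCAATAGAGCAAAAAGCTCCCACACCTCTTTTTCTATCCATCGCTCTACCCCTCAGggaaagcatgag
Tyk2-203: ctttttgagcagggaaagcatgag

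Jak1-201 held 97.0% ± 1.5 of Jak1 TPM. The shares of the Jak2 transcripts differed between the quantifications. Jak2-202 took 81.9%, 69.6%, 43.1% and 25.7% in the first quantification and 47.5%, 54.9%, 58.5% and 41.8% in the second. Jak2-204 took 3.75% in replicate 1 and 0% in the other libraries in the first, but 52.5%, 43.2%, 20.7% and 32.5% in the second. Jak2-201, Jak2-202 and Jak2-204 share a coding length of 3396 bases. The posterior SD of the count of Jak2-201, as deposited by the authors, was 209 to 381 counts, against 34.0 to 56.1 for Ifnar2-201.

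**Figure D5:**
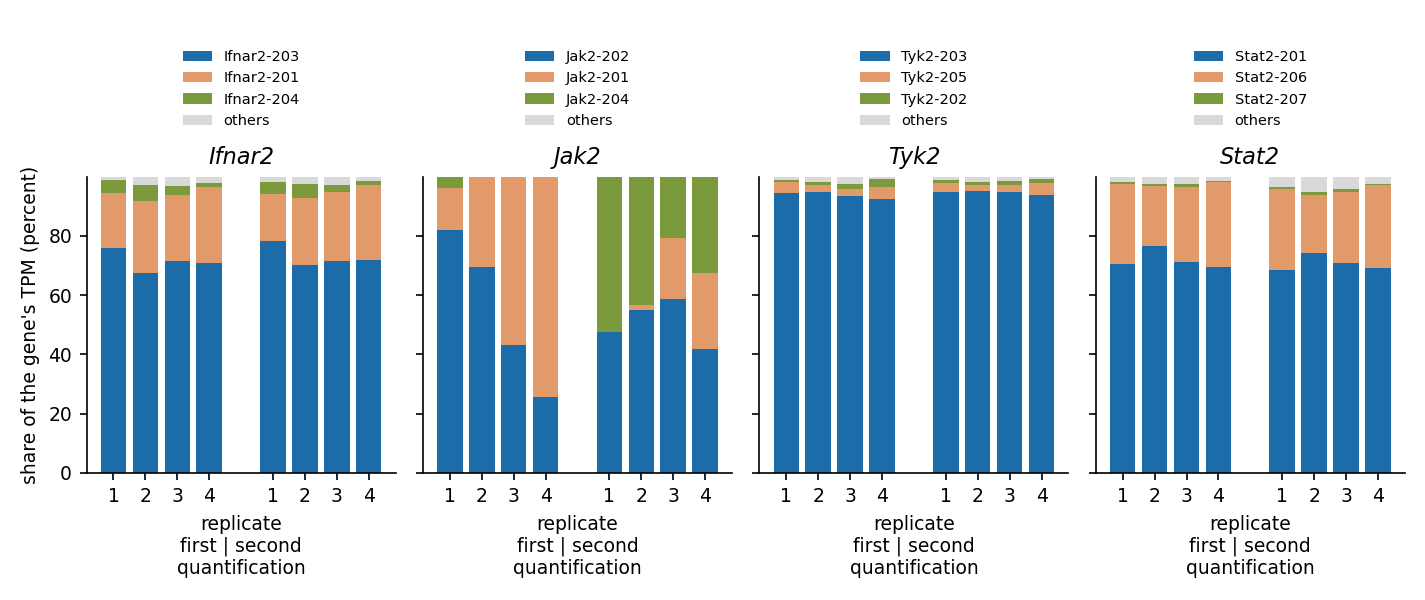
Share of each gene's TPM (percent) held by its leading 3 transcripts and by all others, by replicate, in the first (left 4 bars) and second (right 4 bars) quantification. Ifnar2, Tyk2 and Stat2 look alike in both, while Jak2-204 holds up to 3.75% in the first and 20.7% to 52.5% in the second.

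Stat2 (chr10:128270559-128292849, plus strand) was 414, 379, 347 and 344 TPM, at the 96.1 percentile of genes at 1 TPM or more. Stat2-201 held 70.5%, 76.6%, 71.0% and 69.4% of it. Stat2-206, a transcript of 736 bases annotated as a retained intron, held 27.0%, 20.1%, 25.5% and 28.8% of TPM but 3.82% of the gene's counts on average. The level of Stat2-201 alone was 267 ± 28.1 TPM (SD, n = 4). The genes most like Stat2 by the same measure were Zcchc2 (0.0091), Zeb2 (0.015), Rnf126 (0.017), Ss18l1 (0.018) and Gsk3b (0.022).

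Of the other STAT genes, Stat6, which acts in interleukin 4 signalling, had a mean of 90.6 TPM, and Stat3, which acts in interleukin 6 and 10 signalling, had 89.0 TPM. Neither varied between libraries by the edgeR test.

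All 20 targets of ISGF3 reached 1 TPM in each library, and 17 had a mean of at least 100 TPM. By the edgeR test 0 varied after adjustment, against 2.61% of all genes, and 5 of the 20 had an unadjusted p under 0.05, against 7.79%. Isg15, a ubiquitin-like antiviral protein, was highest at 2964 TPM, followed by the chemokine Cxcl10 at 2726 and Bst2, which tethers budding virus, at 2446. Isg15 was 4112, 3394, 2121 and 2226 TPM, so the libraries with 6 read files were above those with 4, as for Ifnb1. Such TPM did not overlap, in either direction, for 37.8% of all genes tested for variation. Of the targets, Ifit2, Ifit3, Oas1a, Oas2, Irf9 and Eif2ak2 overlapped between these libraries, and the rest did not.

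Of 14 negative regulators 12 reached 1 TPM in each library. By the edgeR test 1 of the 14 varied, against 2.61% of all genes, and 2 had an unadjusted p under 0.05, against 7.79%. The 1 that varied, Socs1, which inhibits JAK kinases, was 9.52, 6.74, 2.28 and 2.04 TPM, with both libraries of 6 read files above the others (edgeR adjusted p for variation 0.00027). Socs3 was highest at 441 TPM, then Usp18, which acts at IFNAR2, at 408, and the phosphatase Ptpn6 at 336.

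A fixed list held 16 chains of other receptors that signal through JAK1, JAK2 or TYK2, alone or beside another kinase. Of the 16 chains, 11 reached 1 TPM in each library. By the edgeR test 0 of the 12 tested varied, with 1 at an unadjusted p under 0.05, close to the 2.61% and 7.79% of all genes. Il2rg (490 TPM), Il10rb (299) and Il10ra (164) were the highest, each above Ifnar1.

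Each library was quantified in 2 ways from the same reads, and the second was compared with the first for each gene. A difference of at least 1.5-fold with a limma adjusted p of up to 0.05 was found for 1474 of 12299 genes, 12.0%, and for 0 of the 9, of which 3 (Ifnar2, Ifngr1 and Tyk2) had an unadjusted p under 0.05, against 48.1% of all genes. At the median gene the second value was lower by 0.29 on the log2 scale (−0.29). By library that median was −0.41, −0.59, −0.04 and −0.13, so the shift was larger in replicates 1 and 2. Set against the median gene, Ifnb1 was 0.43 and Ifngr2 0.33 higher in the second quantification, and the other 7 genes were within −0.07 to 0.06.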

How the data were processed

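Per the file headers, the authors quantified each library in 2 ways on mm10 with GENCODE M21: once from transcriptome alignments and once directly from reads. The programs are not given in the sources used here. The deposited gene tables give expected counts and TPM. The first deposited transcript tables add the percent of a gene's TPM held by each transcript and a posterior SD, and the second give estimated counts and TPM. Genes were matched by symbol. The members and gene lists were chosen with earlier results of these data known.

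Expected counts were rounded. Variation was tested with edgeR 4.0.16 (filterByExpr, TMM, trended dispersion from estimateDisp, intercept only, chi-square on 3 degrees of freedom). edgeR's separate GLM trend estimator, run first, called 291 genes. The switch to estimateDisp, which calls 305, was made after that count was seen. Libraries were split by read files with edgeR's quasi-likelihood test and DESeq2 1.42.0. Quantifications were compared with limma 3.58.1 on log2(TPM + 0.1), pairs with an exact sign-flip test. P-values were Benjamini-Hochberg adjusted. The edgeR and limma tests were checked on simulated data and the sign-flip test on known answers, with outcomes not reported here. Genes named from a list are its 3 highest, those that varied and, in lists of up to 20 genes, those without a count. 1 group leaves no contrast of conditions, and p-values rest only on differences between or within these 4 libraries. Some listed genes are not reported here.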

Additional observations from a re-analysis of the deposited data

Results flagged for a closer look

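In 25 checks of 4 libraries each, 2 had 1 library whose gap to the nearest other, divided by the whole range, passed Dixon's 95% critical value. Chance flags about 1 in 20 such groups. For Ifnar2 TPM the ratio was 0.854, with replicate 3 (209.5 TPM) above the other libraries (168.1 to 174.2). These checks did not cover CPM, in which Ifnar2 was 157, 145, 181 and 162 in replicates 1 to 4. Its unadjusted p for variation by the edgeR deviance test was 0.874. For the share of Ifngr2-201 the ratio was 0.989, with replicate 2 (92.2%) below the other libraries (99.9% to 100%), where 32.9 counts were given to Ifngr2-202 with a posterior SD of 15.5.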

How the results depend on the processing

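The labels name 1 group. No paired contrast of conditions was possible because there is no second group. The call of Ifnb1 as variable held with DESeq2 size factors, library size only (adjusted p = 0.0452), no count filter, the DESeq2 dispersion trend and without ribosomal and mitochondrial genes (edgeR fits). It was lost without replicate 1 and without replicate 3. With edgeR's separate GLM trend estimator, an alternative added after seeing the data, it held with TMM (0.00249) and was lost with library size only (adjusted p = 0.0512, 0 of the 9 genes called). Leaving out each replicate gave 135 to 219 varying genes, with 0 to 1 of the 9, and 0 to 13 genes differing by read files. Without a count filter 35 genes differed by read files, and with DESeq2 103, with 1 of the 9. Without a level filter 2541 genes differed between quantifications.

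Log2 differences turned for Ifngr1 minus Ifngr2 in the second quantification (−0.017) and in counts not divided by length (−0.57). In such counts Ifnar1 minus Ifnar2 was −0.10 (exact p = 0.375) against −1.50, Ifngr1 minus Ifnar1 was −0.19, Ifngr2 minus Ifnar2 0.28 and Jak2 minus Tyk2 0.076. Jak2 minus Tyk2 was 0.10 in the second quantification and −0.12 to 0.14 with each replicate left out. Ifnar1 minus Ifnar2 was 0.53 with full-length coding transcripts only, and 0.55 in the second quantification. Counts not divided by length rise with transcript length by construction; the cause was not tested for the others. By read files, the log2 difference of Ifngr2 was −0.070 to 0.16 and that of Jak1 −0.11 to 0.060 with each replicate left out, and that of Jak1 was 0.015 with no count filter.

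In the second quantification mean TPM was 52.3 for Ifnar1, 146 for Ifnar2, 86.8 for Ifngr1, 66.9 for Jak1 and 299.5 for Stat2. Leading shares there were 90.1% for Ifngr1-201, 76.7% for Ifngr2-201 and 93.2% for Jak1-201. Without ribosomal and mitochondrial genes Ifnar1 was 68.6 TPM and Jak1 86.4. At 159 to 447 counts, Ifnb1 was the least deeply counted of the 9 genes.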
